A study of Mus musculus with 4 samples.

Results

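Immunoglobulin variable (V) segments were described across the bone marrow B lineage of YAP1 heterozygote and wild-type (WT) mice. A segment was taken when its symbol began with Ighv (heavy chain), Igkv (kappa light chain) or Iglv (lambda light chain) and it had at least 20 unique molecular identifiers (UMIs, each counting 1 captured transcript) over the 4 libraries together. Of 32544 genes in the files, 346 were V rows, 118 of them had no UMI, 111 had fewer than 20, and 117 were taken: 63 Ighv, 51 Igkv and 3 Iglv. These 117 held 17651 of the 18222 V UMIs (96.9%). The segments were thus chosen by their summed UMI counts, with no use of genotype. Just inside the limit were Igkv3-1 and Ighv1-63 with 20 UMIs each, and just outside were Igkv8-28, Ighv5-2, Ighv2-3, Ighv3-8 and Ighv1-66 with 19 each. GENCODE annotated 114 of the 117 as V genes and Ighv1-41, Ighv8-10 and Igkv14-126-1 as V pseudogenes.

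The study profiled nucleated bone marrow cells, flow-sorted with gates not given in the sources used here, from 10-week-old mice that were YAP1 heterozygote (2 libraries) or WT (2 libraries), to compare cell percentages and expression between the genotypes. The labels do not describe the changed Yap1 allele, and they do not say that the libraries came from separate animals, so the p-values measure only the spread between these libraries, which may be technical. Each library held 112806900 to 119855112 UMIs over 11346 to 14352 barcodes, and pairs of libraries shared 27 to 62 barcode sequences. Transcripts were counted from their 3' ends.

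In a developing B cell, the RAG recombinase joins 1 V segment to downstream segments, first at the heavy chain locus in pro-B cells and then at a light chain locus in pre-B cells, so that a mature B cell or plasma cell usually transcribes 1 rearranged heavy chain and 1 rearranged light chain. Unrearranged V segments can also be transcribed in precursors as germline transcripts. Plasma cells secrete antibody and carry far more immunoglobulin mRNA than B cells. The V exon lies at the 5' end of the transcript, away from the end that was counted.

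The last 90 bases of the V exon are shown for the segments on which the results turn, since this stretch ends where the V segment is joined. They were read from GENCODE release M21 transcripts on GRCm38, 5' to 3' on the coding strand. Capitals mark the last match to TANTNNTGN, letters that cover the end of the third framework with its conserved cysteine codon, searched on the coding strand only, with overlapping matches allowed. The letters were found in 115 of the 117 segments (98.3%) and in 286 of 342 V transcripts of any level (83.6%). The heavy chain segments most often dominant in plasma-like cells, and Ighv11-2, which recurred with a single kappa partner, end as follows.
Ighv1-81, chr12:115920279-115920368, minus strand: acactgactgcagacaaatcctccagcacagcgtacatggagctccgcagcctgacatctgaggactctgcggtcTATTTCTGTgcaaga
Ighv1-26, chr12:114788372-114788461, minus strand: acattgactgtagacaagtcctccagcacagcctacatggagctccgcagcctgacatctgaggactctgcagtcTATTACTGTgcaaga
Ighv8-8, chr12:115294062-115294151, minus strand: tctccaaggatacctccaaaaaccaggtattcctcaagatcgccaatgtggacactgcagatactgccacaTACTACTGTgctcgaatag
Ighv11-2, chr12:114048241-114048330, minus strand: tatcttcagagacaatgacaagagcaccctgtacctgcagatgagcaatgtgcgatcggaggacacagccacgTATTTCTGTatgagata

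The 4 kappa segments most often dominant in plasma-like cells, with Igkv4-68 and Igkv14-126, which recurred with Ighv8-8 and Ighv11-2, are next.
Igkv1-110, chr6:68271178-68271267, plus strand: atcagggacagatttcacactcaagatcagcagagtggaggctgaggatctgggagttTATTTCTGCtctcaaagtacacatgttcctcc
Igkv1-117, chr6:68121738-68121827, plus strand: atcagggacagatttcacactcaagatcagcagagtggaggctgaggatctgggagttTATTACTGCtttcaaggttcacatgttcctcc
Igkv10-96, chr6:68631963-68632052, minus strand: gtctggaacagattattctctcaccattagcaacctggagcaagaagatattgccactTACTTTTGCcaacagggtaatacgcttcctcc
Igkv5-48, chr6:69726573-69726662, minus strand: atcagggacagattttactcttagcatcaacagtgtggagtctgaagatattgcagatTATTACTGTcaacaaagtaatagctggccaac
Igkv4-68, chr6:69304834-69304923, minus strand: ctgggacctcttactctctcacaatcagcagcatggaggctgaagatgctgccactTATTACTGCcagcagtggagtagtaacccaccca
Igkv14-126, chr6:67896553-67896642, plus strand: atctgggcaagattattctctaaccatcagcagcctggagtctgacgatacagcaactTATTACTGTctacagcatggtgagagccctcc

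All 3 lambda segments are shown because lambda and kappa were read together in many cells. No match was found in the Iglv3 window.
Iglv1, chr16:19085017-19085106, minus strand: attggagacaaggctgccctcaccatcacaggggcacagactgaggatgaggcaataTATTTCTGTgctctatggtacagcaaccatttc
Iglv2, chr16:19260401-19260490, minus strand: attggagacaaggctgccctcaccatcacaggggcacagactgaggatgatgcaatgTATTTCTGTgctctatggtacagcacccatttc
Iglv3, chr16:19241207-19241296, minus strand: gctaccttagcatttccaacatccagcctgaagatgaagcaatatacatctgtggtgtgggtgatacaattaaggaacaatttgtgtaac

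Igkv1-35 and Igkv12-44 are shown because they were read in precursors and B cells and in no plasma-like cell.
Igkv1-35, chr6:70010949-70011038, minus strand: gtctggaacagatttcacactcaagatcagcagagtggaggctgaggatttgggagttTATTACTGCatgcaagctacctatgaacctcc
Igkv12-44, chr6:69814631-69814720, minus strand: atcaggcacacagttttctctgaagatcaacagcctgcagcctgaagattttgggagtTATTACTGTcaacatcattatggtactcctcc

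Close relatives limit how surely a UMI is placed. The median identity of a segment to its nearest other V transcript was 95.4%, and 64 of 117 were at least 95% identical to one. Igkv1-110 and Igkv1-117 were 97.5% identical, with 10 differences, and Iglv1 and Iglv2 were 96.7% identical, with 12. Counts of such pairs are uncertain, since how the authors' counting treated reads that fit both was not given in the sources used here.

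Cells were clustered without any immunoglobulin gene, and clusters were named from marker lists. Pre-B-like cells numbered 765 and 1032 in the YAP1 heterozygote libraries and 1090 and 850 in the WT libraries. B-like cells numbered 1209 and 1879 in the YAP1 heterozygote libraries, against 1294 and 1401 in WT. Plasma-like cells were few, 25 and 37 in YAP1 heterozygotes and 18 and 73 in WT. The 16 pre-B markers, among them the recombinase genes Rag1 and Rag2 and the surrogate light chain gene Vpreb1, summed to between 10433 and 11919 CPM (UMIs of the genes scaled to the same total of UMIs in every library and class) in pre-B-like cells and to between 2826 and 3785 CPM in B-like cells. The 14 plasma markers, among them the antibody joining chain Jchain and the surface marker Sdc1, summed to between 52379 and 58176 CPM in plasma-like cells. Most of this was Jchain, with 51539 and 54326 CPM in YAP1 heterozygotes and 51339 and 48916 CPM in WT. The 18 B markers, among them the IgM constant gene Ighm, summed to between 30491 and 110447 CPM in the same cells. Mature neutrophil markers in the plasma-like cells summed to 20235 and 9525 CPM in YAP1 heterozygotes and to 2250 and 12211 CPM in WT, and their part in the values below was not tested.

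Most V UMIs came from very few cells. The 153 plasma-like cells held 13020 V UMIs (73.8% of all), the 5783 B-like cells 2230 (12.6%) and the 3737 pre-B-like cells 971 (5.5%). A heavy chain V UMI was found in 7.65% of pre-B-like, 14.4% of B-like and 96.1% of plasma-like cells. A kappa V UMI was found in 11.7%, 14.4% and 87.6% of these classes, and a lambda V UMI in 3.05%, 3.89% and 78.4%. In T-like cells, which do not rearrange these loci productively, the shares were 0.509% for heavy, 0.127% for kappa and 0.0636% for lambda, and in mature neutrophil-like cells 0.542%, 0.144% and 0.0346%. Median depth per library was 2922 to 3618 UMIs in pre-B-like, 2494 to 2985 in B-like, 20676 to 27478 in plasma-like, 4311 to 4978 in T-like and 4442 to 5382 in mature neutrophil-like cells. The shares in pre-B-like and B-like cells thus stood above those of the deeper T-like and neutrophil-like cells.

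**Figure D1:**
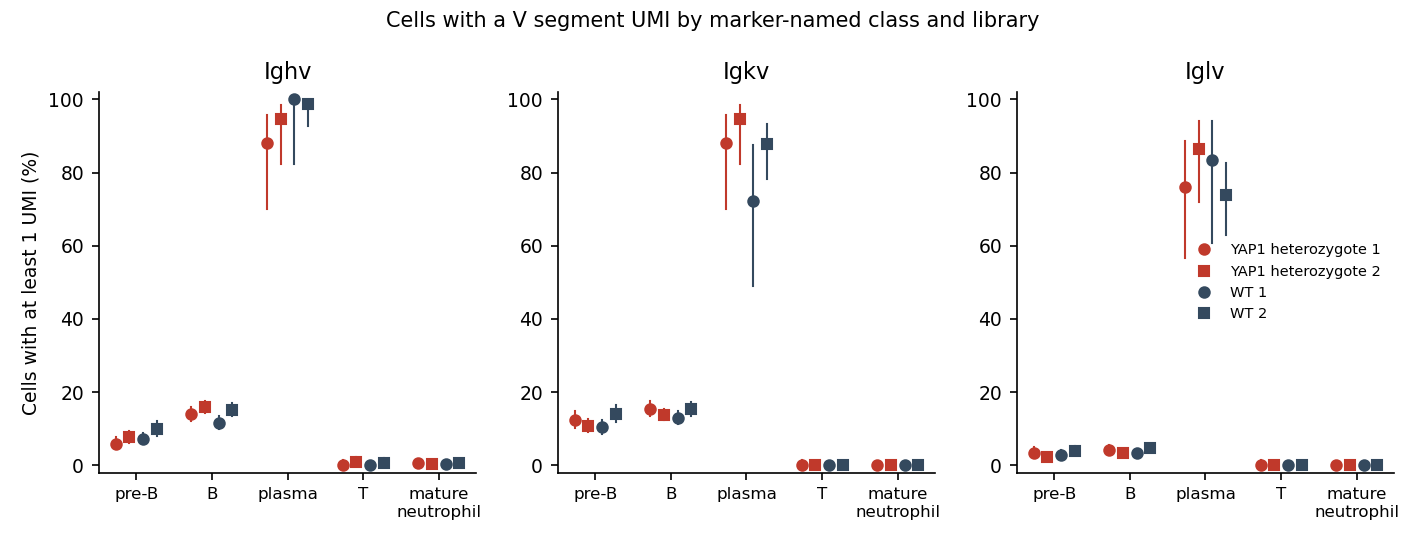
Share of cells with at least 1 V UMI (vertical axis, percent) for the heavy, kappa and lambda loci in 5 classes. Each point is 1 library, YAP1 heterozygote in red and WT in dark blue, with a 95% Wilson interval that covers counting error only; plasma-like cells stand between 72.2% and 100% in all 3 panels and the T-like and neutrophil-like cells near 0.

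Both genotypes overlapped in most of these shares. Pre-B-like cells with a heavy chain V UMI made up 5.88% and 7.66% in YAP1 heterozygotes, against 7.16% and 9.88% in WT. B-like cells with one made up 14.0% and 15.9% in YAP1 heterozygotes and 11.7% and 15.2% in WT. Both pairs of groups overlapped. For kappa, pre-B-like cells stood at 12.4% and 10.8% in YAP1 heterozygotes and 10.4% and 14.1% in WT, again with overlap.

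Within the pre-B-like class, the 3 clusters differed. In cluster 6, led by the surrogate light chain genes Vpreb1 and Igll1 and by Dntt, the polymerase that adds bases at joins, 6.96% of 690 cells had a V UMI. In cluster 4, led by Rag1, 23.5% of 2124 cells had one, and in cluster 25, 25.7% of 923 cells. Median depth was 2576.5 UMIs in cluster 4, 4849.5 in cluster 6 and 8583 in cluster 25. As a share of all UMIs, V UMIs ranged over the libraries from 0.0100% to 0.0122% in cluster 4. They ranged from 0.000563% to 0.00141% in cluster 6 and from 0.00233% to 0.00279% in cluster 25. By this share cluster 25 stood below cluster 4. These are descriptions of clusters, with no test.

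Where a cell was read for heavy chain or kappa, it was mostly read for 1 segment of that locus. Of cells with a heavy chain V UMI, 99.7% of pre-B-like, 98.2% of B-like and 89.8% of plasma-like cells had UMIs of a single Ighv segment. Most of the cells of the first 2 classes held just 1 UMI, 89.9% and 85.2% of them, and a single UMI can show only 1 segment. Among cells with at least 2 heavy chain V UMIs, 28 of 29 pre-B-like, 108 of 123 B-like and 129 of 144 plasma-like cells showed 1 segment. Kappa differed in the pre-B-like cells, where 32 of 73 cells with at least 2 UMIs showed 1 segment, against 107 of 144 B-like and 95 of 133 plasma-like cells. Up to 3 Igkv segments were read in 1 pre-B-like cell. For lambda, most plasma-like cells showed more than 1 segment. Of cells with a lambda V UMI, 50 of 120 plasma-like cells showed 1 segment, against 110 of 114 pre-B-like and 223 of 225 B-like cells. Among plasma-like cells with at least 2 lambda V UMIs, 36 of 106 showed 1 segment.

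A segment was called dominant in a cell when it had at least 2 UMIs and more than 50% of the V UMIs of its locus there. Among the 153 plasma-like cells, 144 had a dominant heavy chain, 133 a dominant kappa and 97 a dominant lambda segment. A second Ighv segment reached 2 UMIs in 2 of these cells. A second Igkv segment reached 2 UMIs in 13 cells and 10 UMIs in 3. The share of plasma-like cells with a dominant heavy chain segment was 88.0% and 91.9% in YAP1 heterozygotes, against 94.4% and 97.3% in WT, and the groups did not overlap. The share with a dominant kappa segment was 88.0% and 94.6% in YAP1 heterozygotes and 72.2% and 86.3% in WT, also without overlap. With 2 libraries a group, the exact two-sided permutation test cannot go below p = 0.3333, which both gave. With a dominant call set at 5 UMIs, the heavy chain shares were 88.0% and 89.2% in YAP1 heterozygotes and 88.9% and 90.4% in WT, with overlap, a difference of -1.06 percentage points in place of -5.91. Without WT replicate 1 the kappa difference was 5 percentage points in place of 12. Cells with more lambda than kappa constant gene UMIs numbered 1 and 0 in YAP1 heterozygotes and 4 and 7 in WT. None of them had a dominant kappa segment. Among cells with more kappa constant UMIs, 22 of 23 and 35 of 37 had one in YAP1 heterozygotes. In WT 13 of 14 and 63 of 66 such cells had one. The part of lambda-led cells in the kappa difference was not tested. Plasma-like cells under 2000 UMIs numbered 2 and 1 in YAP1 heterozygotes and 1 and 3 in WT. Of these 7 cells, 6 had no dominant heavy chain or kappa segment, 2 and 1 in YAP1 heterozygotes and 1 and 2 in WT. Their part in the differences above was not tested.

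Ighv1-81 was the heavy chain segment most often dominant in plasma-like cells, in 18 cells, followed by Ighv1-26 in 14 and Ighv8-8 in 12. Ighv1-81 was dominant in 4 and 5 cells of the YAP1 heterozygotes and in 2 and 7 cells of WT. As a share of plasma-like cells this was 16.0% and 13.5% in YAP1 heterozygotes and 11.1% and 9.59% in WT. Ighv8-8 was dominant in 1 and 0 cells of the YAP1 heterozygotes, against 5 and 6 in WT. These counts rest on a handful of cells per library, and cells that descend from 1 clone are not independent. Segments of the large Ighv1 family, 33 of the 63 Ighv segments, were dominant in 58.3% of the plasma-like cells with a call, in 62.2% of such B-like cells and in 46.4% of such pre-B-like cells.

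**Figure D2:**
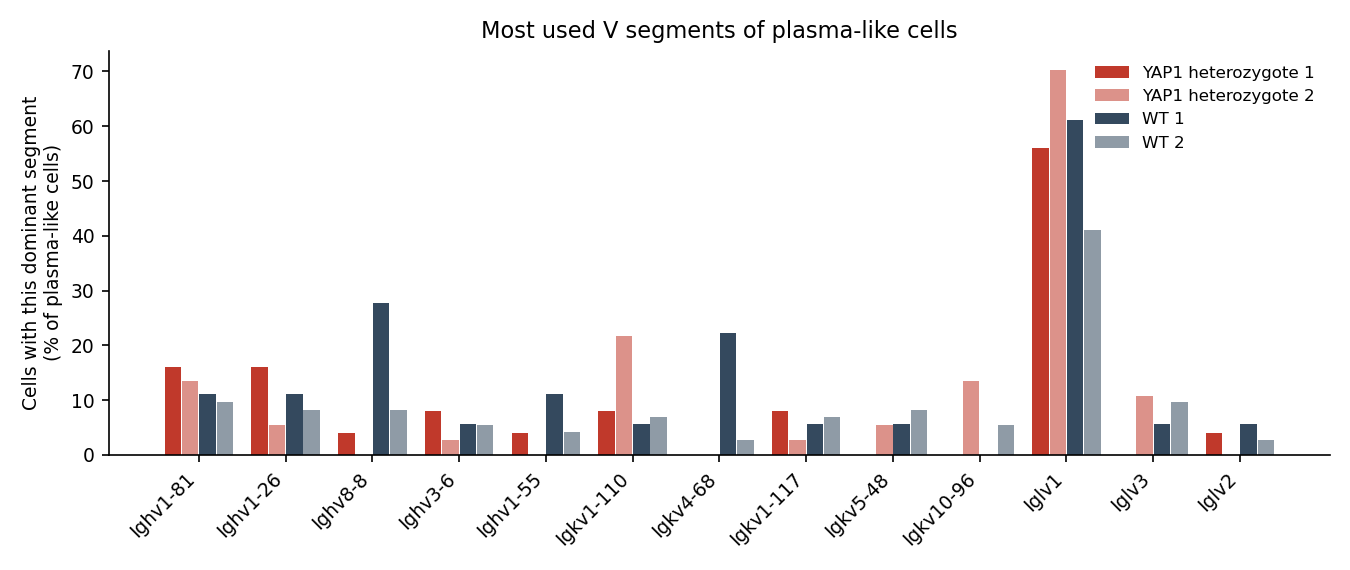
Share of plasma-like cells of a library (vertical axis, percent) in which a segment was dominant, for the 5 most used Ighv, the 5 most used Igkv and all Iglv segments. Bars are libraries, YAP1 heterozygote in reds and WT in blues; Iglv1 stands highest, between 41.1% and 70.3%, and Ighv8-8 and Igkv4-68 reach 27.8% and 22.2% in WT replicate 1.

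Among the plasma-like cells read, heavy chain segments went with different antibody classes. Of the 18 cells with Ighv1-81, 15 had Igha, the constant gene of IgA, as their most abundant heavy chain constant gene, and 3 had a gene of the IgG class. All 12 cells with Ighv8-8 had Ighm, the constant gene of IgM, as did all 6 with Ighv11-2. Ighv1-26 was split between 9 Igha and 5 Ighm cells. Over all 153 cells, 69 were led by Igha, 62 by Ighm and 22 by an IgG gene. All 6 Ighv11-2 cells shared 1 kappa segment and came from 1 library, and 6 of the 12 Ighv8-8 cells shared Igkv4-68. Cells of 1 clone are not independent, so these counts describe the cells read and carry no test.

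Igkv1-110 was the most used kappa segment of plasma-like cells, dominant in 16 cells, 2 and 8 in YAP1 heterozygotes and 1 and 5 in WT. Igkv1-117, Igkv10-96 and Igkv5-48 followed with 9 cells each. Igkv4-68 was dominant in 0 and 0 cells of YAP1 heterozygotes and in 4 and 2 cells of WT. Igkv14-126 was dominant in 6 cells, all in WT replicate 2.

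Heavy and kappa calls stood together in 130 plasma-like cells and made 88 different pairs, of which 72 were seen once. The pair most often seen was Ighv1-81 with Igkv1-110, in 9 cells from all 4 libraries, 1 and 4 in YAP1 heterozygotes and 1 and 3 in WT. Ighv1-81 with Igkv1-117 was seen in 8 cells, again from all 4, 2 and 1 in YAP1 heterozygotes and 1 and 4 in WT. All 8 were Igha cells, and of the 9, 7 were Igha and 2 Ighg2b cells. In all, 9 pairs were seen in at least 2 libraries and 7 in both genotypes.

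Other pairs kept to 1 library or genotype. Ighv11-2 with Igkv14-126, a pair known in mice from B-1 cell antibodies that bind phosphatidylcholine, was seen in 6 cells, all Ighm and all in WT replicate 2. Ighv8-8 with Igkv4-68 was seen in 4 cells of WT replicate 1 and 2 cells of WT replicate 2, all Ighm, and in no YAP1 heterozygote cell. Ighv7-3 with Igkv10-96 was seen in 3 cells of YAP1 heterozygote replicate 2, all of the IgG class. With 25 and 37 plasma-like cells in the YAP1 heterozygotes, 0 cells allow a share of up to 12% and 8.11% (3 cells of the total). Ighv8-8 with Igkv4-68 made up 22.2% of the plasma-like cells of WT replicate 1, above both limits, and 2.74% of those of WT replicate 2, below both. Ighv11-2 with Igkv14-126 made up 8.22% in WT replicate 2. These differences were not tested.

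Lambda segments were read beside kappa in many plasma-like cells. Of the 97 with a dominant lambda segment, 85 had a dominant kappa segment too. Iglv1 was the dominant lambda segment in 81 cells, Iglv3 in 12 and Iglv2 in 4. By constant genes, 140 cells had more Igkc, the kappa constant gene, than lambda constant (Iglc) UMIs, and 12 had more Iglc. Of the 140, 133 had a dominant kappa segment and 95 had an Iglv1 UMI, with a median of 4 among these 95 and a highest count of 167. Of the 12, none had a dominant kappa segment and 11 had a dominant lambda segment.

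The cells led by Igkc that carried 20 or more Iglv1 UMIs numbered 3 of 23 and 8 of 37 in YAP1 heterozygotes and 1 of 14 and 2 of 66 in WT. Lambda V UMIs per 1000 lambda constant UMIs came to 49.2 and 284 in the plasma-like cells of YAP1 heterozygotes and to 12.5 and 12.9 in WT. The groups did not overlap. The lambda constant total behind that ratio was 8286 and 2150 UMIs in YAP1 heterozygotes and 25022 and 59892 in WT, where 4 and 7 cells were led by Iglc, against 1 and 0 in YAP1 heterozygotes. For kappa, V UMIs per 1000 Igkc UMIs ranged over the 4 libraries from 5.04 to 7.74.

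**Figure D3:**
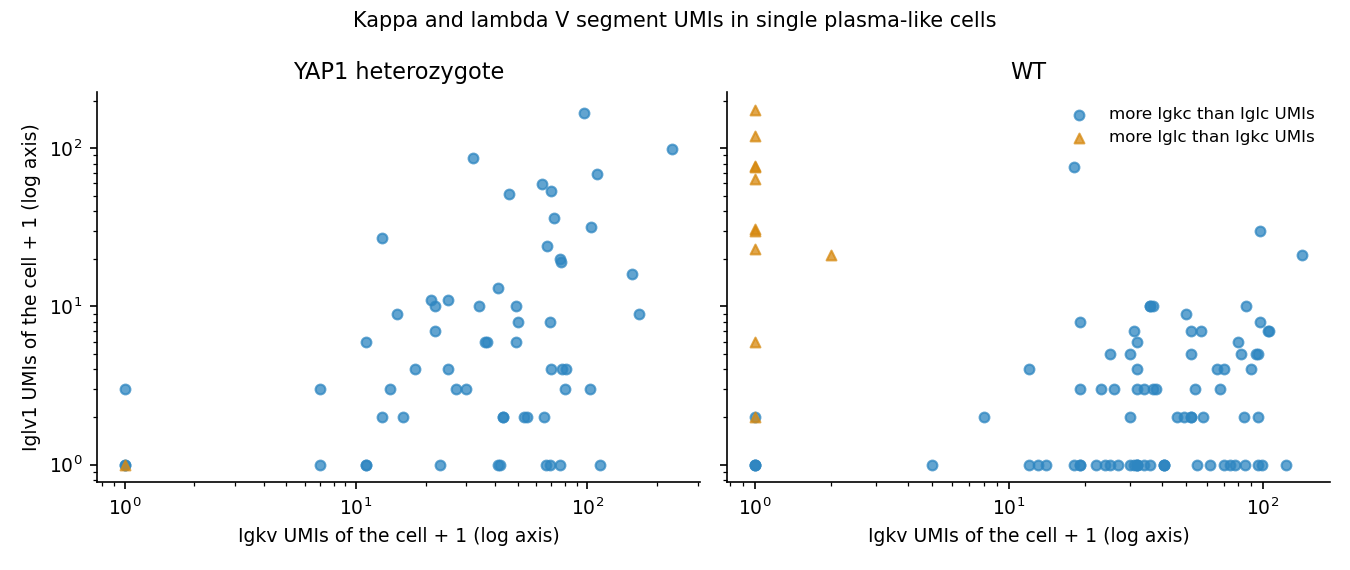
Kappa V UMIs (horizontal axis) and Iglv1 UMIs (vertical axis) of each plasma-like cell, both as the count plus 1 on log axes. Circles are the 140 cells with more Igkc than Iglc UMIs and triangles the 12 with more Iglc, a cell with neither in excess being left out; YAP1 heterozygotes are on the left and WT on the right, and most triangles stand at 0 kappa V UMIs, while Iglv1 reaches 167 UMIs in a circle.

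Some kappa segments were read mainly in precursors or B cells. Igkv1-35 had 101 of its 127 UMIs in pre-B-like cells, 24 and 29 in YAP1 heterozygotes and 22 and 26 in WT. It had 10 UMIs in B-like cells and 0 in plasma-like cells. It was dominant in 11 pre-B-like cells, 4 and 4 in YAP1 heterozygotes and 2 and 1 in WT. Igkv1-135 had 66 UMIs in pre-B-like cells, 64 in B-like cells and 53 in plasma-like cells, the last all from 1 cell. Igkv12-44 had 78 of its 103 UMIs in B-like cells, 17 and 27 in YAP1 heterozygotes and 17 and 17 in WT, and 0 in plasma-like cells. These values compare classes of 1 set of cells and carry no test.

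In B-like cells, Igkv1-117 and Iglv1 were each dominant in 16 cells and Igkv12-44 in 14. Igkv1-117 was read with 29 and 27 UMIs in YAP1 heterozygotes, against 14 and 18 in WT. The groups did not overlap, and the log2 fold change was 0.64 (SE 0.37, edgeR adjusted p = 0.997). Among Ighv segments, Ighv1-64 was dominant in the largest share of B-like cells, averaging 0.108% over the libraries.

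**Figure D4:**
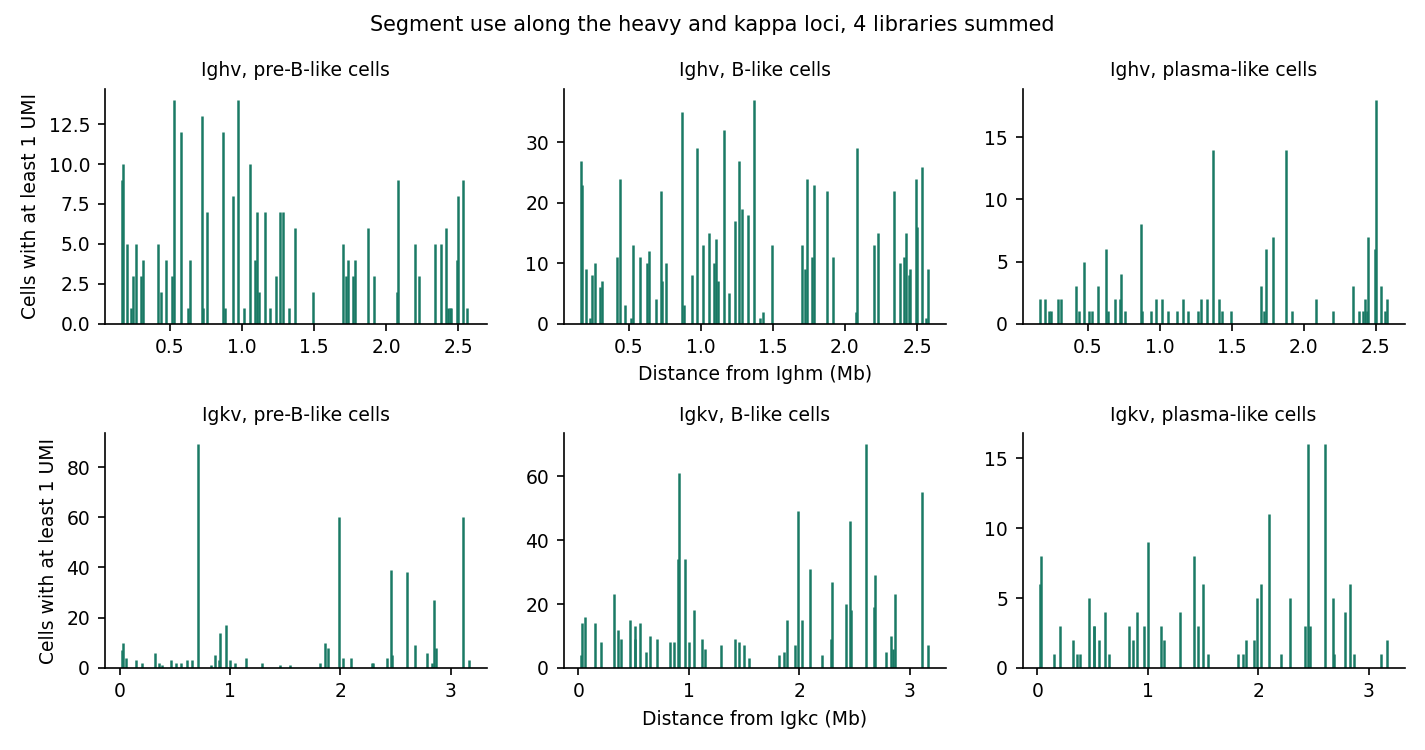
Cells with at least 1 UMI of a segment (vertical axis, scaled per panel) by its distance from Ighm for heavy chain and from Igkc for kappa segments (horizontal axis, Mb), summed over 4 libraries. Each line is 1 segment; in pre-B-like cells a few kappa segments stand far above the rest, while B-like cells spread over all 51.

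Position along the loci was summarised by splitting the segments by rank at 1.24 Mb from Ighm and at 1.42 Mb from Igkc. Of the cells with an Ighv UMI, counted once per segment, 61.3% of pre-B-like, 48.1% of B-like and 36.4% of plasma-like readings were on the side nearer Ighm. For Igkv the shares nearer Igkc were 38.9%, 43.4% and 43.3%. Among plasma-like cells with a dominant Ighv segment, 36.4% and 50% lay nearer Ighm in YAP1 heterozygotes, against 5.88% and 35.2% in WT. For Igkv, 40.9% and 37.1% lay nearer Igkc in YAP1 heterozygotes and 61.5% and 42.9% in WT. Neither pair of groups overlapped, each with an exact permutation p of 0.3333, and WT replicate 1 gave 17 heavy and 13 kappa calls. With dominant calls at 5 UMIs the Ighv shares met at 36.4%, the lowest in YAP1 heterozygotes and the highest in WT (exact permutation p = 0.6667). Without that library the difference, YAP1 heterozygote minus WT, was 7.97 percentage points for Ighv in place of 22.6, and -3.83 for Igkv in place of -13.2.

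Segment variety was compared over equal numbers of cells as an effective number, the count of equally used segments that would give the same spread. In plasma-like cells it was 10.3 and 12.9 for Ighv in YAP1 heterozygotes and 8.29 and 11.9 in WT. For Igkv it was 10.6 and 8.82 in YAP1 heterozygotes and 8.49 and 9.88 in WT. In B-like cells the Igkv value was 8.40 and 8.96 in YAP1 heterozygotes, against 9.07 and 10.4 in WT, without overlap (exact permutation p = 0.3333). With doublets kept it was 8.74 and 9.22 in YAP1 heterozygotes and 9.08 and 10.7 in WT, with overlap (exact permutation p = 0.6667). With calls at 1 UMI the difference was -0.203 in place of -1.05.

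The genotypes were then compared segment by segment on UMI counts summed per library and class. A filter on low counts left 7 segments in pre-B-like, 11 in B-like and 37 in plasma-like cells, so most of the 117 were too sparse to be tested. By edgeR's quasi-likelihood test with Benjamini-Hochberg adjustment over all genes of the class, 0 segments passed an adjusted p of 0.05 in any class. Over all genes, 0.0919% were called in pre-B-like cells (0.00919% higher and 0.0827% lower in YAP1 heterozygotes), 0.00986% in B-like cells, all lower, and 0.0503% in plasma-like cells (0.0251% higher and 0.0251% lower). The V segments with an unadjusted p under 0.05 numbered 0 of 7 in pre-B-like, 1 of 11 in B-like and 7 of 37 in plasma-like cells, beside 5.94%, 5% and 3.44% of all genes in these classes. DESeq2 also called 0 in each. The smallest adjusted p by edgeR was 0.992 in pre-B-like, 0.682 in B-like and 0.459 in plasma-like cells. In plasma-like cells the count depended on the libraries: without YAP1 heterozygote replicate 1 it was 50 of 78 segments tested, without YAP1 heterozygote replicate 2 it was 5 of 65, without WT replicate 1 it was 21 of 85 and without WT replicate 2 it was 2 of 63, each with 1 library left in a group and assumed to vary like the others. Over all genes these 4 fits called 1.80%, 0.156%, 0.551% and 0.162%. With no filter on low counts it was 61 of 101 segments, 36 higher and 25 lower in YAP1 heterozygotes, beside 0.716% of all genes, 0.388% higher and 0.328% lower.

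**Figure D5:**
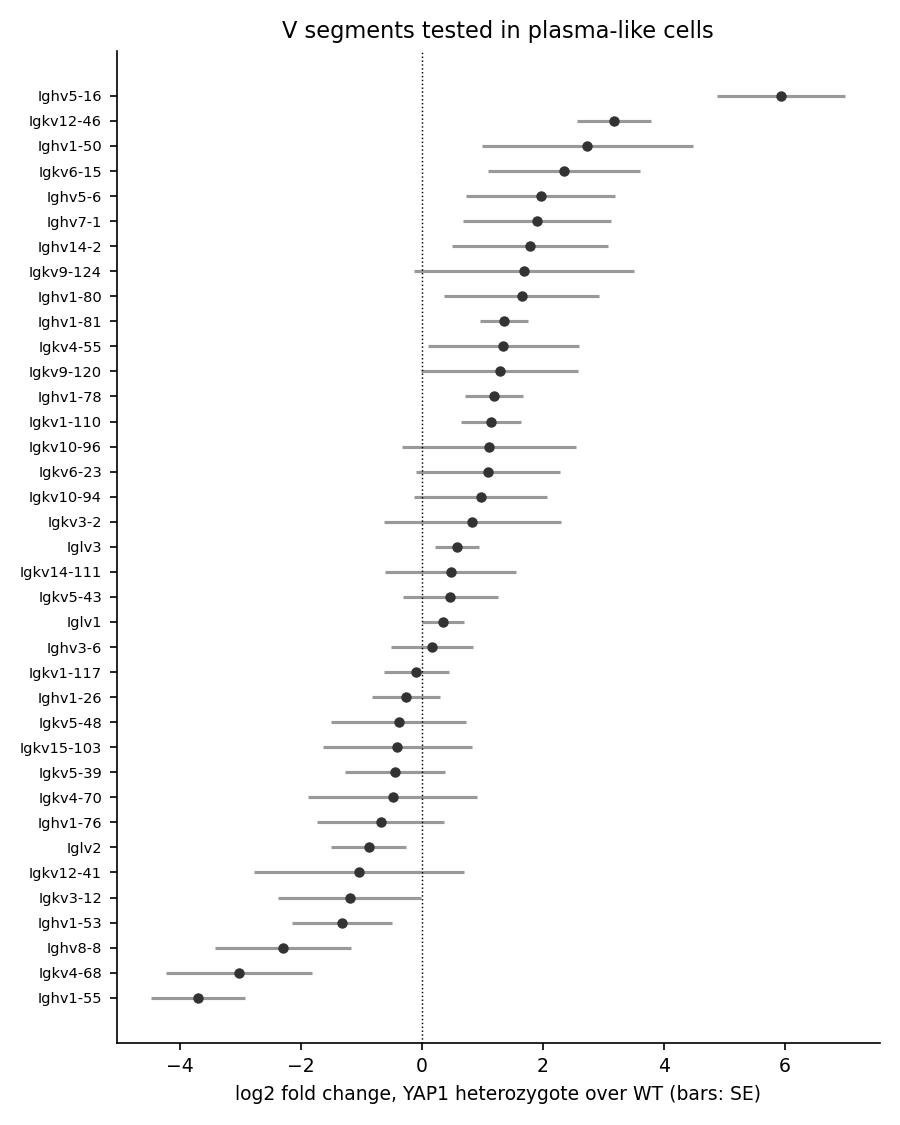
Log2 fold change, YAP1 heterozygote over WT (horizontal axis), of the 37 V segments tested in plasma-like cells, with bars for the SE. The values run from -3.69 to 5.94 with wide bars, and none passed the adjusted threshold.

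Iglv1, the best measured segment, had 359 and 539 UMIs in plasma-like cells of YAP1 heterozygotes and 286 and 617 in WT. Its log2 fold change was 0.35 (SE 0.34), and the groups overlapped in CPM. In B-like cells it had 43 and 48 UMIs in YAP1 heterozygotes, against 30 and 40 in WT (log2 fold change 0.20, SE 0.27). In pre-B-like cells it had 22 and 19 UMIs in YAP1 heterozygotes, against 28 and 22 in WT (log2 fold change -0.23, SE 0.36).

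Single cells carried many of the plasma-like totals. For 74 of the 117 segments, 1 cell held at least 50% of the plasma-like UMIs. Ighv5-16, at the top of the fold changes, had 35 and 14 UMIs in YAP1 heterozygotes and 1 and 0 in WT, with 70.0% of them in 1 cell. Ighv1-55, at the bottom, had 6 and 0 UMIs in YAP1 heterozygotes and 15 and 135 in WT, with 60.9% in 1 cell. Both were picked after their values were seen. The median log2 fold change of the tested segments was -0.06 in pre-B-like, 0.20 in B-like and 0.59 in plasma-like cells, beside 0.00 for all genes in each class.

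As a share of all UMIs of the class, heavy chain V UMIs in plasma-like cells were 0.118% and 0.180% in YAP1 heterozygotes, against 0.0845% and 0.0903% in WT. Kappa V UMIs were 0.224% and 0.210% in YAP1 heterozygotes and 0.183% and 0.177% in WT. Lambda V UMIs were 0.0663% and 0.0748% in YAP1 heterozygotes and 0.0887% and 0.0440% in WT. Heavy and kappa did not overlap between the genotypes and lambda did. With cells taken by a per-cell marker gate instead of by cluster, of which 3.92% were plasma-like by cluster, heavy and kappa overlapped too. In all, 12 of 37 such measures by locus and class did not overlap, each at the smallest p the test allows, and none could pass 0.05. With no difference between genotypes, a share of 0.3333 of such measures would be expected not to overlap, and 12 of 37 is near that share.

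The machinery around the segments was described from 4 lists. Of the 18 recombination and joining genes, 18 were tested in pre-B-like, 16 in B-like and 4 in plasma-like cells, and none passed. Rag1, a subunit of the recombinase, had 335 and 298 CPM in pre-B-like cells of YAP1 heterozygotes and 363 and 264 CPM in WT, with overlap. Dntt had 325 and 404 CPM in YAP1 heterozygotes, against 297 and 180 CPM in WT, without overlap (log2 fold change 0.62, SE 0.17, edgeR adjusted p = 0.185). Cluster 6, with Dntt among its leading genes, held 131 of 765 and 272 of 1032 pre-B-like cells in YAP1 heterozygotes. In WT it held 168 of 1090 and 119 of 850, and the part of this make-up in the Dntt values was not tested. Of 10 B cell receptor and surrogate light chain partners, 10, 9 and 6 were tested in pre-B-like, B-like and plasma-like cells, and none passed. Of 18 locus opening and looping factors, 18, 18 and 16 were tested in these classes, and none passed either. Of 13 constant and J chain genes, 11 were tested in plasma-like cells and 2 passed. Ighg1, the IgG1 constant gene, had 2149 and 5024 CPM in YAP1 heterozygotes and 0 CPM in both WT libraries (edgeR adjusted p = 0.00294). Iglc1, a lambda constant gene, fell to 859 and 890 CPM in YAP1 heterozygotes, against 48366 and 20633 CPM in WT (edgeR adjusted p = 0.00886). Ighg1 was the leading constant gene of 2 plasma-like cells, 1 in each YAP1 heterozygote library, and lambda constant genes led 12 cells. The call of Ighg1 ended with the marker gate (adjusted p = 1.00), and with each gene's top cell left out, or with cells of at least 2 UMIs counted, the gene no longer passed the filter on low counts. The call of Iglc1 ended with the marker gate (adjusted p = 1.00), with the replicate number as a block (adjusted p = 0.254) and with that count of cells (adjusted p = 0.997).

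Some V rows were read outside the B lineage. Ighv8-10 and Ighv1-41, both annotated as pseudogenes, had 0% of their 22 and 62 UMIs in pre-B-like, B-like and plasma-like cells. In mature neutrophil-like cells Ighv8-10 had 20 UMIs in 19 cells and Ighv1-41 had 22 UMIs in 22 cells. Ighv1-64 had 17 UMIs there. These rows were named after their values were seen.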

How the data were processed

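UMI counts were summed and tested from matrices of whole-number counts, with no normalization, that the authors deposited for 4 libraries. Per the file headers, Cell Ranger 5.0.0 wrote them. Named in the submitters' processing notes are GRCm38, mm10, Seurat 4.3.0 and a different Cell Ranger, 3.0.0, and the disagreement was not settled. How reads that fit several V segments were counted is not given in the sources used here. A barcode was kept with 500 or more UMIs, 200 or more genes and no more than 10% of UMIs from mitochondrial genes, and doublets called by Scrublet (scanpy 1.11.5, expected rate 0.8% per 1000 barcodes) were removed, 3.42% to 4.39% per library. Clustering used 2000 variable genes, 30 components, 15 neighbours and Leiden resolution 1.0, without immunoglobulin, T cell receptor and sex chromosome genes, and gave 33 clusters named from markers.

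Sums per library and class were tested with edgeR 4.0.16 (quasi-likelihood, filterByExpr, TMM, threshold 0.05), with DESeq2 1.42.0 as an alternative, after a check on simulated counts. Measures per library were compared by an exact two-sided permutation test. For the mean number of segments per cell, cells were thinned to 2000 UMIs and shallower cells were left out. The counts of cells with 1 or more segments were not thinned, so depth was not matched between classes there. Named segments were the 5 most used Ighv, the 5 most used Igkv and all Iglv of a class, segments called by the test, and those at the 20 UMI limit. The segments, markers and lists were chosen with earlier results of these data known.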

Additional observations from a re-analysis of the deposited data

Results flagged for a closer look

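V rows under the limit of 20 UMIs held 571 UMIs in all, which the comparisons did not use. Barcodes called doublets held 303 V segment UMIs. Kept cells outside the pre-B-like, B-like and plasma-like clusters held 1103, of which 678 were in 8 cells with at least 20 V UMIs each. These are signals in data outside the comparisons, above the limit that a count of 0 allows. With 2 libraries a group, no test of a library standing apart from its group was run.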

How the results depend on the processing

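No V segment was called in pre-B-like or B-like cells under any setting that left segments to test. Counting cells with at least 2 UMIs left none to test in these 2 classes, and the per-cell marker gate left none in B-like cells. In plasma-like cells 0 were called by DESeq2, with doublets kept, with the marker gate and with each gene's top cell left out, 61 with no filter on low counts, and 2 to 50 without 1 library. With the replicate number as a block, 0 were called in each class, and over all genes the block called 53 in pre-B-like cells in place of 10, 149 in B-like cells in place of 1 and 1 in plasma-like cells in place of 2. Same-numbered libraries deviated together with a correlation of 0.27 in pre-B-like, 0.44 in B-like and -0.17 in plasma-like cells. The labels give such libraries only a shared number, and whether they were handled together was not tested. The crossed pairing in plasma-like cells, added after seeing the data, called 0 as well. The differences of measures equal their means within the block, by construction. Of the 37 measures compared, 9 kept the sign of the difference (YAP1 heterozygote minus WT) under every setting run. The marker gate took mostly other cells than the clusters did. By cluster, 34.8% of its pre-B-like, 10.5% of its B-like and 3.92% of its plasma-like cells had the same name. Of its pre-B-like cells, 49.9% were B-like by cluster, and of its B-like cells, 36.6% were mature neutrophil-like. Values under this gate thus describe largely different cells. The cause of the changes was not tested. Below, parentheses give locus and class. With doublets kept, the difference in mean segments per cell was 0.00207 (Ighv, B-like) and -0.00821 (Iglv, B-like). With a per-cell marker gate, the difference in mean segments per cell was 0.00226 (Ighv, B-like), 0.0089 (Ighv, pre-B-like), -0.000243 (Igkv, B-like), -0.00722 (Igkv, plasma-like), 0.00237 (Igkv, pre-B-like) and -0.000764 (Iglv, B-like). With a per-cell marker gate, the difference in percent of UMIs was 3.78e-05 (Ighv, B-like), 0.00167 (Ighv, plasma-like), 0.000369 (Ighv, pre-B-like), -1.19e-05 (Igkv, B-like), -0.000421 (Igkv, plasma-like), 0.000302 (Igkv, pre-B-like), -8.84e-05 (Iglv, plasma-like) and 2.53e-05 (Iglv, pre-B-like). With a per-cell marker gate, the difference in percent of cells with a dominant segment was -0.0087 (Ighv, B-like), -1.08 (Ighv, plasma-like), 0.325 (Ighv, pre-B-like), -0.0704 (Igkv, B-like), -0.235 (Igkv, plasma-like), -0.0158 (Iglv, B-like), -0.133 (Iglv, plasma-like) and 0.0953 (Iglv, pre-B-like). With dominant calls at 1 UMI, the difference in percent of cells with a dominant segment was 1.4 (Ighv, B-like), -1.8 (Ighv, pre-B-like), -0.562 (Igkv, pre-B-like), -0.184 (Iglv, B-like) and -0.68 (Iglv, pre-B-like). With dominant calls at 1 UMI, the difference in effective number was -2.62 (Ighv, B-like) and -0.203 (Igkv, B-like). With dominant calls at 1 UMI, the difference in percent on the constant gene side was 4.91 (Ighv, B-like) and -3.04 (Igkv, B-like). With dominant calls at 5 UMIs, the difference in percent of cells with a dominant segment was -1.06 (Ighv, plasma-like), 0.0654 (Ighv, pre-B-like), 0.00272 (Igkv, B-like) and -0.0459 (Igkv, pre-B-like). Counting a segment from 2 UMIs, the difference in mean segments per cell was 0.0013 (Ighv, B-like), 0.124 (Ighv, plasma-like), 0.00211 (Ighv, pre-B-like), 0.000904 (Igkv, pre-B-like), -0.000202 (Iglv, B-like), -0.0049 (Iglv, plasma-like) and 0.000775 (Iglv, pre-B-like). Without thinning, the difference in mean segments per cell was -0.000479 (Iglv, B-like). Thinned to 1000 UMIs, the difference in mean segments per cell was 0.0767 (Ighv, plasma-like), 0.00081 (Ighv, pre-B-like), -0.000337 (Igkv, B-like), -0.0025 (Iglv, B-like) and 0.00184 (Iglv, pre-B-like). Weighting usage by UMIs, the difference in effective number was -1.1 (Ighv, plasma-like) and -2.99 (Igkv, plasma-like). Log2 fold changes of named segments that changed sign were -0.057 (Ighv3-6 in plasma-like cells, replicate block), -0.30 (Ighv3-6 in plasma-like cells, cell with the most UMIs of each gene left out), -0.18 (Ighv3-6 in plasma-like cells, marker gate), 0.63 (Igkv1-117 in pre-B-like cells, marker gate), -0.032 (Iglv1 in plasma-like cells, marker gate), 0.17 (Iglv1 in pre-B-like cells, marker gate), 0.025 (Iglv3 in pre-B-like cells, marker gate). The difference in mean segments per cell, each library left out in turn, ranged over -0.0943 to 0.0309 (Ighv, plasma-like), -0.00142 to 0.0131 (Igkv, B-like), -0.00901 to 0.00267 (Igkv, pre-B-like), -0.147 to 0.173 (Iglv, plasma-like), -0.0126 to 0.0029 (Iglv, pre-B-like). The difference in percent of UMIs, each library left out in turn, ranged over -0.000394 to 6.88e-05 (Igkv, pre-B-like), -6.07e-05 to 0.000235 (Iglv, B-like), -0.0182 to 0.0265 (Iglv, plasma-like), -0.00019 to 3.7e-05 (Iglv, pre-B-like). The difference in percent of cells with a dominant segment, each library left out in turn, ranged over -0.186 to 1.02 (Ighv, B-like), -0.0669 to 0.163 (Iglv, B-like), -2.82 to 18.3 (Iglv, plasma-like), -0.0995 to 0.065 (Iglv, pre-B-like). The difference in effective number, each library left out in turn, ranged over -0.187 to 0.797 (Ighv, B-like), -0.334 to 3.29 (Ighv, plasma-like), -0.365 to 1.45 (Igkv, plasma-like). The difference in percent on the constant gene side, each library left out in turn, ranged over -13.3 to 7.19 (Ighv, B-like). The difference in percent lambda, each library left out in turn, ranged over -9.52 to 0.117 (Igl, B-like), -6.65 to 5.11 (Igl, plasma-like). Leaving out each library in turn, log2 fold changes ranged over -0.083 to 0.031 (Ighv1-26 in B-like cells), -1.42 to 0.42 (Ighv1-26 in plasma-like cells), -1.42 to 1.31 (Ighv3-6 in plasma-like cells), -1.51 to 0.20 (Igkv1-110 in B-like cells), -0.034 to 1.83 (Igkv1-110 in plasma-like cells), -0.23 to 1.32 (Igkv1-110 in pre-B-like cells), -1.42 to 0.62 (Igkv1-117 in plasma-like cells), -0.13 to 0.87 (Igkv1-135 in B-like cells), -0.28 to 0.92 (Igkv1-135 in pre-B-like cells), -0.024 to 0.41 (Igkv1-35 in pre-B-like cells), -5.56 to 9.74 (Igkv10-96 in plasma-like cells), -0.37 to 2.47 (Igkv5-43 in plasma-like cells), -8.95 to 2.42 (Igkv5-48 in plasma-like cells), -8.46 to 2.31 (Igkv9-120 in plasma-like cells), -0.025 to 0.94 (Iglv1 in plasma-like cells), -0.47 to 0.014 (Iglv1 in pre-B-like cells), -0.34 to 0.34 (Iglv3 in B-like cells), -0.75 to 0.37 (Iglv3 in pre-B-like cells). Depth limits these results: plasma-like cells number 18 to 73 a library, 89.9% of pre-B-like cells read for a heavy chain segment hold 1 UMI, and intervals cover counting error only.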

Other observations

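The 8 kept cells outside the B lineage clusters with at least 20 V UMIs had 54 to 191 V UMIs and 14530 to 71941 UMIs in all, and each had a UMI of 10 to 13 of the 14 plasma markers. Of these cells, 2 were in YAP1 heterozygote replicate 2, 2 in WT replicate 1 and 4 in WT replicate 2, and 5 were in cluster 27, whose leading list was neutrophil precursor. Both WT replicate 1 cells had Ighv1-55 as their leading heavy chain segment, with 16 and 20 UMIs, and Igkv3-4 as their leading kappa segment, with 58 and 53 UMIs. A further cell, in WT replicate 2, had 32 UMIs of Ighv1-69, no kappa V UMI and 157 UMIs of its leading lambda segment, Iglv1. Barcodes that Scrublet called doublets had been removed before these 8 cells were picked, so whether they are doublets was not tested.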
